A study of Mus musculus with 2 samples.

Results

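Isolated H3K4me1 peaks are intervals of the authors' replicated peak list on chromosomes 1 to 19 of mm10 that have no other interval of the same list within 20 kb of either edge. The rule found 5517 such peaks among 222570 intervals on these chromosomes, or 2.48%, and the whole list held 226060 intervals. The list came from chromatin immunoprecipitation and sequencing (ChIP-seq) with an H3K4me1 antibody in E14TG2a.4, a line of male mouse embryonic stem cells from strain 129/Ola, which the labels give as embryonic with an age of 3.5 days. The labels name 2 biological replicates of this line, from the same donor, without any other treatment or genotype, and both form 1 group. Control libraries were not analysed here, and the results describe a single line. The peak lists hold no read counts, so depth is unknown. Peaks were chosen from their positions in the list, so their spacing is not a finding, and positions, widths and overlaps are given as descriptions without tests.

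H3K4me1 is monomethylated lysine 4 of histone H3. It is laid down by methyltransferases of the MLL3 and MLL4 (KMT2C and KMT2D) complexes at enhancers, and it also flanks active promoters, where the nucleosomes next to the start site carry the trimethylated form instead. In embryonic stem cells the mark lies in dense groups of peaks around the genes of the pluripotent state, at active enhancers and at enhancers that are primed but not yet used. A peak that stands alone in many kilobases without another listed peak is therefore an unusual arrangement of this mark.

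The sequences of 5 promoters with a strong isolated peak are shown because they differ in CpG content. Each is the 250 bases before the transcription start site (TSS) from RefSeq on GRCm38.p6, the assembly also called mm10, on the strand of the gene, with CpG dinucleotides in capitals. Irf4 encodes a transcription factor of lymphocytes, Tacr1 the receptor for substance P and Il18 a cytokine. Cabcoco1 encodes a calcium-binding coiled-coil protein of cilia and Usp40 a ubiquitin-specific peptidase.
Irf4 (chr13:30748983-30749232, plus strand): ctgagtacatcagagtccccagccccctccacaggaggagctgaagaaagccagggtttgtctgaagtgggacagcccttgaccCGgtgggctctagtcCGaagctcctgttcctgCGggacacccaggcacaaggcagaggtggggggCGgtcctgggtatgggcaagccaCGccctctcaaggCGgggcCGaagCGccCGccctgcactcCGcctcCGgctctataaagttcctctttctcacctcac
Tacr1 (chr6:82402225-82402474, plus strand): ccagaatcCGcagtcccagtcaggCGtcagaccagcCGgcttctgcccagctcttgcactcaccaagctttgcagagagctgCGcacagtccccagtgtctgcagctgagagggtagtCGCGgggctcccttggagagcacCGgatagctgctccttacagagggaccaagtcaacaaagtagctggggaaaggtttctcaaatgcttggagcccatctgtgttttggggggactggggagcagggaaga
Il18 (chr9:50554450-50554699, plus strand): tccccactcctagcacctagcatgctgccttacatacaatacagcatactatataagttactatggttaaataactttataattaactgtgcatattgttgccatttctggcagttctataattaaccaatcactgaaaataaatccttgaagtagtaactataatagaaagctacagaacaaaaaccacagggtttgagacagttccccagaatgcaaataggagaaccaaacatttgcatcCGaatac
Cabcoco1 (chr10:68541876-68542125, minus strand): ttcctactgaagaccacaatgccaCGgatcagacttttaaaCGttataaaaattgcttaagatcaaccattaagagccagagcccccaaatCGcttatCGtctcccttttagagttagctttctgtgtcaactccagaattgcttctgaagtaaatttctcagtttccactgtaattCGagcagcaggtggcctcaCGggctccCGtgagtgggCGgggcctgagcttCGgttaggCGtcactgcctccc
Usp40 (chr1:88008552-88008801, minus strand): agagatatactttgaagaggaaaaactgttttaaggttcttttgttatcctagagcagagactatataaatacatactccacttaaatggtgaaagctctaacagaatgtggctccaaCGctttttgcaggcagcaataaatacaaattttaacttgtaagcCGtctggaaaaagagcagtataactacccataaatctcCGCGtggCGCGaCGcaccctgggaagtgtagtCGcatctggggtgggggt
Within these 250 bases CpG dinucleotides occurred 11 times at Irf4, 7 times at Tacr1, 1 time at Il18, 10 times at Cabcoco1 and 8 times at Usp40. The TSS lay inside the isolated peak at Irf4, Tacr1, Il18 and Cabcoco1, whereas at Usp40 the peak began 342 bp downstream of it.

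The mark at the isolated peak of chr14:115043052-115046481 covered the 6 hairpins of the miR-17-92 cluster, a polycistron of microRNAs that promotes proliferation. The peak was 3430 bp wide, among the 10 widest isolated peaks, and its host transcript Mir17hg starts inside it. Its signal value, the authors' measure of peak strength, was 3.94 in the replicated list, 5.04 in the list of replicate 1 and 4.17 in that of replicate 2. No other replicated peak was listed for 184793 bp on the side of smaller coordinates and for 46303 bp on the other, although the pooled list had a neighbour within 20 kb. The mature strands from RefSeq are printed with the seed (bases 2 to 8) in capitals, since the members fall into families by seed.
mmu-miR-17-5p: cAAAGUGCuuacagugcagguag
mmu-miR-20a-5p: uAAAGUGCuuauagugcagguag
mmu-miR-18a-5p: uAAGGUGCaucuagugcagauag
mmu-miR-19a-3p: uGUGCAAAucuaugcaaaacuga
mmu-miR-19b-3p: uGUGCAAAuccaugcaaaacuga
mmu-miR-92a-3p: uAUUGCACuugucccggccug
miR-17-5p and miR-20a-5p share the seed AAAGUGC, and miR-19a-3p and miR-19b-3p share GUGCAAA. miR-18a-5p has the seed AAGGUGC and miR-92a-3p AUUGCAC. Of 919 autosomal hairpins in RefSeq, 621 lay within 2 kb of any replicated peak and 12 within 2 kb of an isolated one, at 7 peaks. The other 6 hairpins each had their own isolated peak, among them Mir335, with a peak 273 bp wide. The cluster and Mir335 were named after their values were seen.

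Isolated peaks were narrower and weaker than the rest of the list. Their median width was 513 bp (quartiles 352 and 799 bp), against 703 bp (quartiles 424 and 1258 bp) for the 217053 other intervals. Widths ran from 170 to 5429 bp among isolated peaks and up to 33348 bp among the others. Only 2.27% of isolated peaks, but 11.7% of the others, were over 2 kb wide. The median signal value was 3.48 against 4.29 in the replicated list, and the median −log10 q was 8.34 against 12.8. In the lists of the single replicates, the peaks overlapping isolated peaks had a median signal value of 3.56 (replicate 1) and 3.55 (replicate 2), and those overlapping other intervals 4.36 and 4.24. Isolated peaks made up 1.56% of the bases covered by the list.

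**Figure D1:**
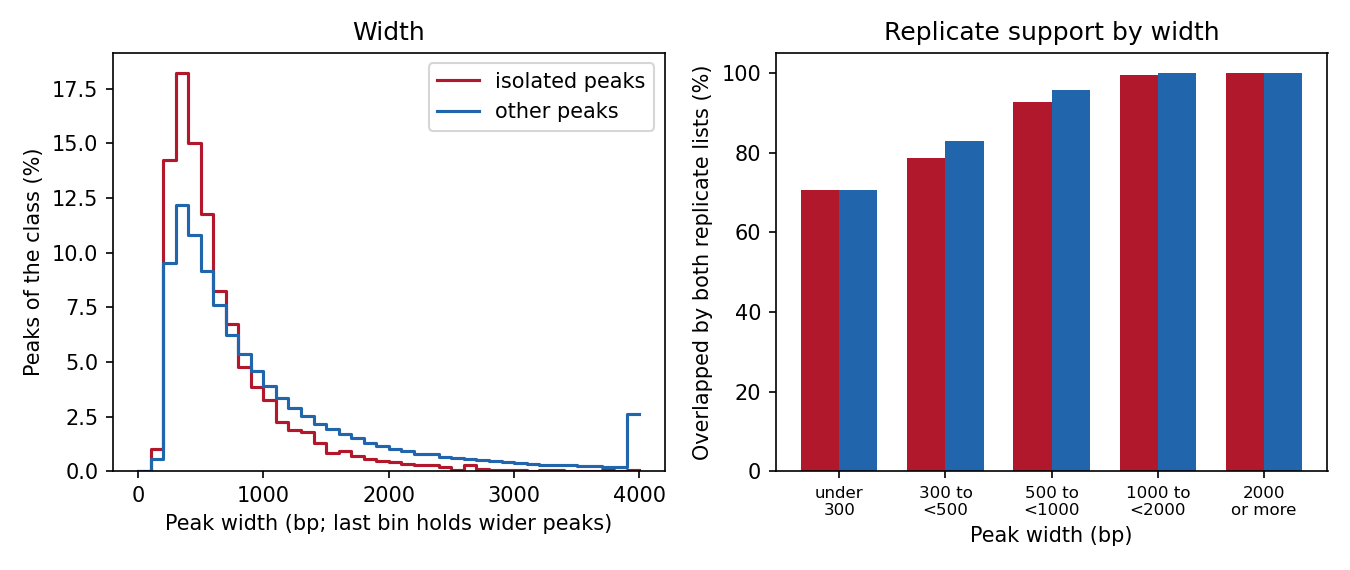
The left panel plots the percent of isolated peaks (red, 5517) and of other peaks (blue, 217053) by width in bins of 100 bp, and isolated peaks are crowded at small widths. The right panel gives, for 5 width classes, the percent of peaks that the lists of both replicates overlapped by at least 1 bp, which rose with width in both classes, from about 70.5% of the peaks under 300 bp to 100% of those of 2000 bp or more.

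Support by both replicates was found for most isolated peaks. Of the 5517 peaks, 4730 or 85.7% (exact Clopper-Pearson interval 84.8 to 86.6%, for counting error only) were overlapped by the lists of both replicates by at least 1 bp, against 91.5% of all autosomal intervals. Replicate 1 alone overlapped 282 isolated peaks, replicate 2 alone 493, and 12 were overlapped by neither. Per the deposited read-me texts, the replicated list was derived from the pooled and both replicate lists, so this support is not independent of the choice of peaks. Support went with width. Among peaks under 300 bp wide, 70.5% of the isolated and 70.5% of the other peaks were overlapped by both replicates. From 300 to under 500 bp the shares were 78.7% and 82.9%, from 500 to under 1000 bp 92.6% and 95.6%, and from 1000 to under 2000 bp 99.4% and 99.9%. All 125 isolated peaks of 2000 bp or more were overlapped by both. When both intervals had to share 50% of their length, the share was 52.6% for isolated peaks and 63.8% for all intervals.

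Isolation itself depended on which list supplied the neighbours. The pooled list, which holds every replicated interval and others besides, left 3031 of the 5517 peaks (54.9%) without a neighbour within 20 kb. Against the list of replicate 1, 4034 peaks (73.1%) had no other peak within 20 kb, and against that of replicate 2, 3801 (68.9%). In all of these lists at the same time, 2550 peaks (46.2%) stood alone. These 2550 had a median width of 496 bp, support by both replicates at 85.3% and a promoter share of 6.08%. Applied to each replicate's own list, the rule found 4956 peaks in replicate 1 and 4867 in replicate 2, a mean of 4912 ± 62.9 (SD, n = 2), with median widths of 275 and 267 bp.

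The empty stretches around isolated peaks varied widely in length. The median distance to the nearer neighbour was 38528 bp. It was over 50 kb for 2040 peaks, over 100 kb for 826, over 200 kb for 269 and over 500 kb for 35. At the limit, 1183 peaks had their nearer neighbour between 20 and 25 kb away, with a median width of 541 bp and a promoter share of 5.66%. The 1890 intervals just outside, with a neighbour 15 to 20 kb away, had a median width of 547 bp and a promoter share of 5.93%. The peaks on both sides of the limit were thus of similar width. A neighbour was missing on 1 side for 14 isolated peaks at the ends of a chromosome's list.

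The longest stretch on the shorter side, 1082124 bp, surrounded a peak of 672 bp at chr17:60965172-60965843, 1915474 bp from the TSS of the ephrin gene Efna5. The next 2 lay at chr14:43797017-43797525, 22114 bp from the TSS of the ribonuclease gene Ear1, and at chr5:10766191-10766381. These 2 peaks were 509 and 191 bp wide, and the first had a counterpart in replicate 1 (signal value 3.79) but not in replicate 2. The fourth, with 847208 bp before and 1020094 bp after it, lay on the promoter of Cntnap2, an adhesion gene of the neurexin family. The fifth, of 1074 bp at chr3:77955176-77956249, lay 1189497 bp from the nearest TSS, that of Rapgef2.

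Most isolated peaks were remote from the start sites of protein-coding genes, although many lay within gene bodies. The median distance from the edge of the peak to the nearest protein-coding TSS was 103881 bp (quartiles 38045 and 251226 bp), against 17554 bp (quartiles 5001 and 49662 bp) for the other intervals. Of the isolated peaks, 2821 or 51.1% lay over 100 kb from a TSS, against 13.2% of all intervals. Over 500 kb away lay 564 or 10.2%, against 1.12% of all intervals. No gene started within 100 kb of the centre of 53.1% of the isolated peaks, against 14.6% of all intervals. Gene bodies beyond 2 kb of a TSS held 1927 isolated peaks or 34.9%, against 50.1% of all intervals. Intergenic were 3198 or 58.0%, against 34.5% of all intervals. Isolated peaks over 100 kb from a TSS had a median width of 507 bp, and 85.4% were overlapped by both replicates.

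**Figure D2:**
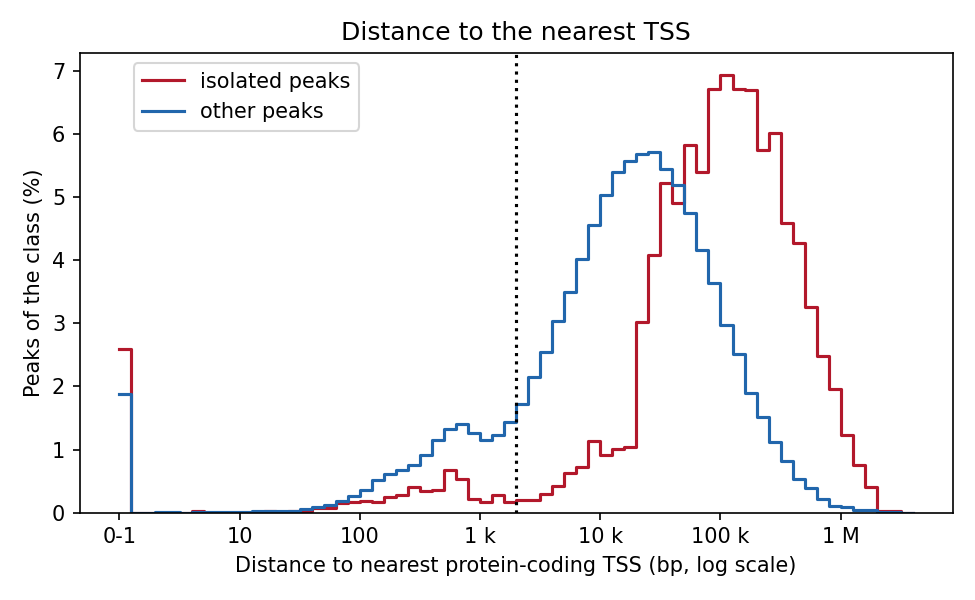
The percent of isolated (red) and other (blue) peaks is plotted by distance from the peak edge to the nearest protein-coding TSS, on a log axis, with peaks that contain a TSS in the first bin and a dotted line at 2 kb. Isolated peaks are most frequent near 100 kb and other peaks between 10 and 50 kb, and a small separate group of isolated peaks lies at or near a TSS.

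The remotest isolated peak, chr14:91375171-91375540, lay 2515129 bp from the nearest TSS, that of the protocadherin gene Pcdh9. It was 370 bp wide and had signal values of 3.36 in replicate 1 and 2.50 in replicate 2. A second peak in the same gene-poor region, chr14:90416538-90416800, had Pcdh20 as its nearest gene at 1945142 bp and empty stretches of 1029868 and 813898 bp. The peaks at chr5:59847603-59848090 and chr5:59880308-59880714, both nearest to G6pd2, were neighbours of each other, 32217 bp apart. On the other side of the first, no replicated peak was listed for 2089922 bp. The last of the 5 remotest peaks, on chromosome 18, lay 2187743 bp from Pik3c3. All 5 were under 500 bp wide and overlapped by both replicates.

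The widest isolated peak measured 5429 bp at chr13:101233062-101238490. It was intergenic, 399635 bp from the TSS of Slc30a5 and 935 bp from the start of the non-coding gene 5930438M14Rik, with signal values of 5.09 in replicate 1 and 6.20 in replicate 2. The second lay within Pacs1, a trafficking gene, at chr19:5176299-5180537, and the fourth within Cacna2d3, a calcium channel subunit gene, at chr14:29267355-29271069. The third was intergenic at chr12:42523978-42527706, over 1 Mb from the TSS of Lrrn3. Adra1a and Fhit, at which the peak lay on a TSS, and Tmigd3 also held peaks among the 10 widest. The TSS at Fhit, at position 10453458, is an internal start of this minus-strand gene, whose 5' end lies at 11162061. Both replicates overlapped all 10. In the pooled list, 8 of the 10 had a neighbour within 20 kb.

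Chromosomes differed in how many of their peaks stood alone. The share was 3.76% on chromosome 3, 3.55% on chromosome 18 and 3.46% on chromosome 1. It was 1.36% on chromosome 11, 1.69% on chromosome 19 and 1.70% on chromosomes 5 and 17. Per megabase the range was narrower, from 1.84 isolated peaks on chromosome 5 to 2.83 on chromosome 18, whereas all intervals ranged from 63.2 per Mb on chromosome 3 to 143 on chromosome 11. Over the 19 chromosomes, which share the same 2 libraries, the isolated share had a Spearman coefficient of -0.86 with protein-coding genes per Mb and of -0.94 with intervals per Mb. The latter follows from the rule, since isolation is set by the distance to other intervals and their number is the denominator of the share, and genes per Mb cannot be told apart from it here.

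**Figure D3:**
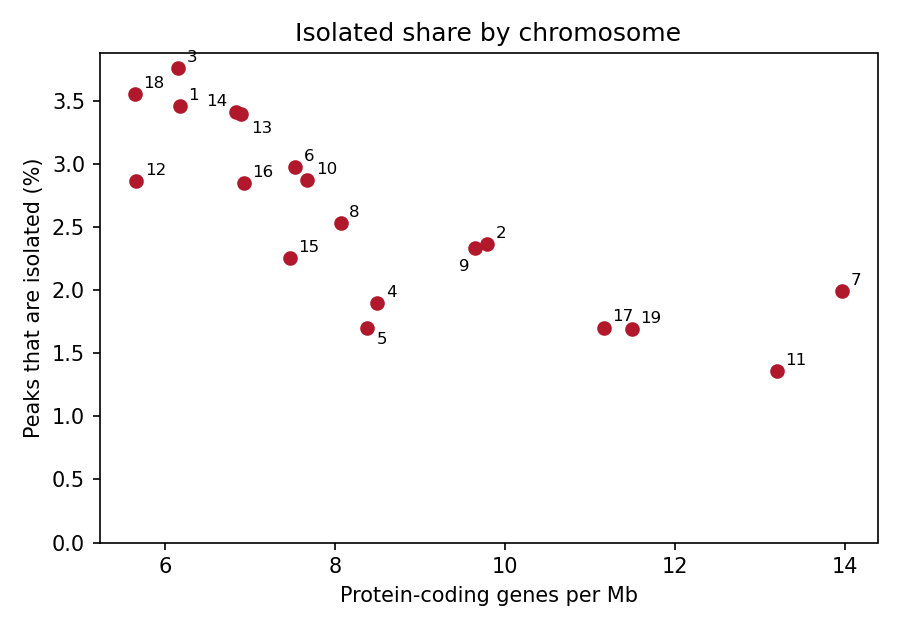
Each point is one of the 19 autosomes, labelled by its number, with protein-coding genes per Mb on the x axis and the percent of its replicated peaks that are isolated on the y axis. The share is highest on gene-poor chromosomes 3, 18 and 1 and lowest on chromosome 11, where 1.36% of peaks are isolated.

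Promoters held a smaller share of isolated peaks than of the list as a whole. Of the 5517 peaks, 392 or 7.11% (exact interval 6.44 to 7.82%, counting error only) had a protein-coding TSS within 2 kb of their edges, against 15.4% of all autosomal intervals. A TSS lay inside 143 isolated peaks (2.59%) and inside 1.90% of all intervals. Isolated peaks at promoters were wider than those elsewhere. Their median width was 637.5 bp, with 513 bp in gene bodies and 496 bp between genes, and 92.6% of them were overlapped by both replicates, against 84.8% in gene bodies. Their median signal value was 3.98 in the replicated list, with 3.48 in gene bodies and between genes, and 4.12 in replicate 1, with 3.56 in both. In replicate 2 the median was 3.55 in all 3 places, so a difference in signal was not seen there. Promoter peaks that were not isolated had a median width of 901 bp. The promoter share did not fall with longer empty stretches. It was 6.82% of the 3477 peaks with 20 to 50 kb on the shorter side, 7.66% of 1214 with 50 to 100 kb, 7.36% of 557 with 100 to 200 kb and 7.81% of 269 with more. Over the same classes the share in gene bodies was 40.5%, 30.5%, 22.4% and 9.29%. A TSS of a long non-coding RNA, without a protein-coding one, lay within 2 kb of 140 of 5261 isolated peaks, or 2.66%, against 3.35% of all intervals. Chromosome 18, for which no such starts were used, is left out of these counts.

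The promoter peaks belonged to 394 of 20324 genes, so 1.94% of autosomal protein-coding genes with a known start had an isolated promoter peak, whereas 75.9% had any replicated peak within 2 kb. At 365 of the 394 genes both replicates overlapped the peak. At 186 the peak was also alone in the pooled list. These genes had a median length of 44620.5 bp, against 17491 bp for all autosomal protein-coding genes. For 246 of them, the gene body held at most 1 replicated peak, which need not be the isolated one. At 144 genes the TSS lay inside the peak, at 189 the peak lay downstream of the TSS and at 61 upstream.

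The strongest isolated promoter peak was that of Cabcoco1, at chr10:68540383-68542763 and 2381 bp wide. Its signal value was 8.61 in the replicated list, 9.35 in replicate 1 and 7.51 in replicate 2. The next belonged to Kcnmb2, an auxiliary subunit gene of calcium-activated potassium channels, at chr3:31901798-31904804, with 7.89 in the replicated list, 8.46 in replicate 1 and 6.05 in replicate 2. On the side of smaller coordinates, 442786 bp without peaks lay next to it. These peaks, and those of Fhit, Usp40 and Bco2, had a neighbour within 20 kb in the pooled list, whereas those of Irf4, Tacr1, Adra1a and Dynlt1a had none.

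Irf4 and 2 receptor genes followed. The peak of Irf4, chr13:30748743-30751094, and that of the substance P receptor gene Tacr1, chr6:82401068-82403886, both had 7.77 in the replicated list. In the replicates they had 8.02 and 6.68 (Irf4) and 8.02 and 6.47 (Tacr1). The peak on Adra1a, the alpha-1A adrenergic receptor gene, covered chr14:66635235-66638925 and had 6.96 in the replicated list, 7.57 in replicate 1 and 6.89 in replicate 2. Its summit lay 2810 bp downstream of the TSS. Dynlt1a, a dynein light chain gene with near-identical copies in the genome, to which reads could also belong, had a peak of 672 bp upstream of its TSS with the same signal value of 6.96. A single peak of 2177 bp, chr9:50553845-50556021, served Bco2, a carotenoid-cleaving oxygenase gene, and Il18, which lie on opposite strands with overlapping 5' ends, with 7.16 in replicate 1 and 5.17 in replicate 2. Its empty stretches of 20067 and 21319 bp were just over the limit. Each of these named peaks was listed in both replicates, and at each the value of replicate 1 was above that of replicate 2, on scales that belong to each list.

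**Figure D4:**
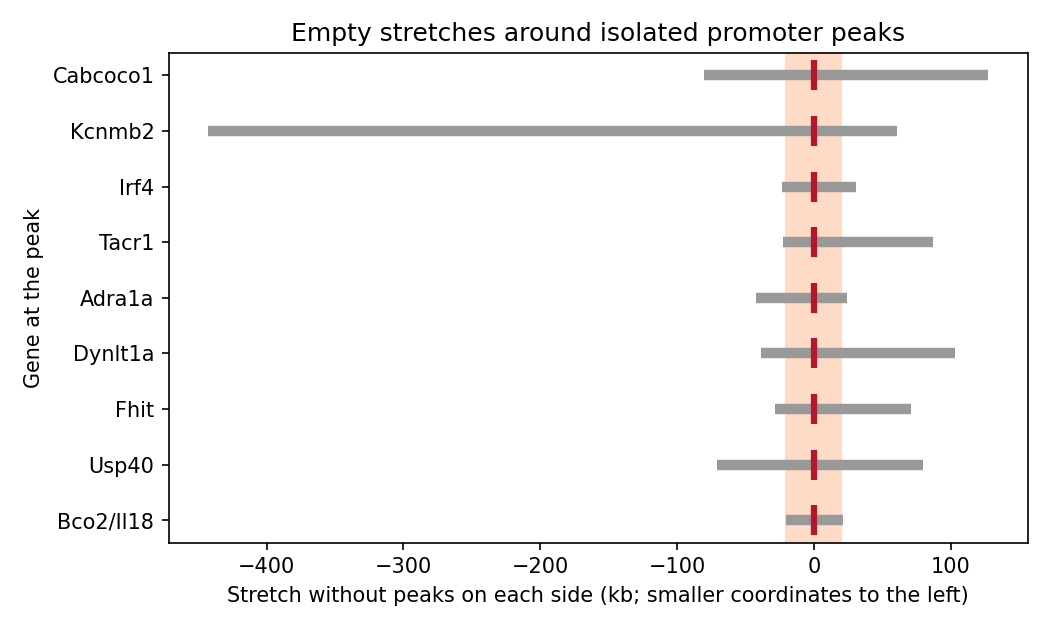
Grey bars span the stretch without replicated peaks on each side of the isolated peaks at the 10 genes with the highest signal value, with the peak itself in red at 0 kb and the 20 kb of the rule shaded. Bco2 and Il18 share a peak whose bar barely exceeds the shaded zone, and that of Kcnmb2 reaches 442786 bp on the left.

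The CpG content of promoters with an isolated peak lay between that of other marked promoters and that of unmarked ones. In the window from 250 bp before to 50 bp after the TSS, the median observed to expected CpG ratio was 0.469 at 348 TSSs whose nearest peak was isolated. It was 0.717 at 14916 TSSs with another peak within 2 kb and 0.154 at 4821 TSSs without a peak. A ratio over 0.6, as in CpG islands, was found at 37.6%, 63.5% and 4.48% of these TSSs. The letters TATAAA, on either strand, occurred in 14.7%, 7.33% and 29.2% of the windows, and in 12.7% of all of them. The letters GGGCGG, the GC box, occurred in 42.5%, 60.1% and 6.89%, and in 47.0% of all. TSSs of a gene can share a window or a peak and are not independent.

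The isolated peak lay mostly downstream of the start. Among 427 TSSs the summit was downstream of 70.5%, and the TSS was inside the peak at 35.1%. Over all TSSs with a replicated peak within 2 kb, the summit of the nearest peak was downstream of 40.9%, and the TSS was inside it at 24.6%. At the 131 with a CpG ratio over 0.6 the summit was downstream in 75.6%, and the TSS was inside the peak at 22, or 16.8%. Among the 217 with a lower ratio these values were 64.5% and 49.8%. At TSSs with other peaks the TSS was inside the nearest one at 5.34% of those with a high ratio and 54.9% of those with a low ratio, and the summit was downstream of 37.4% and 45.6%. By the rule an isolated peak was the only replicated peak near its TSS. Other TSSs could have peaks on both sides, of which only the nearest was scored. The downstream shares of isolated and other peaks are therefore unlike measures.

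**Figure D5:**
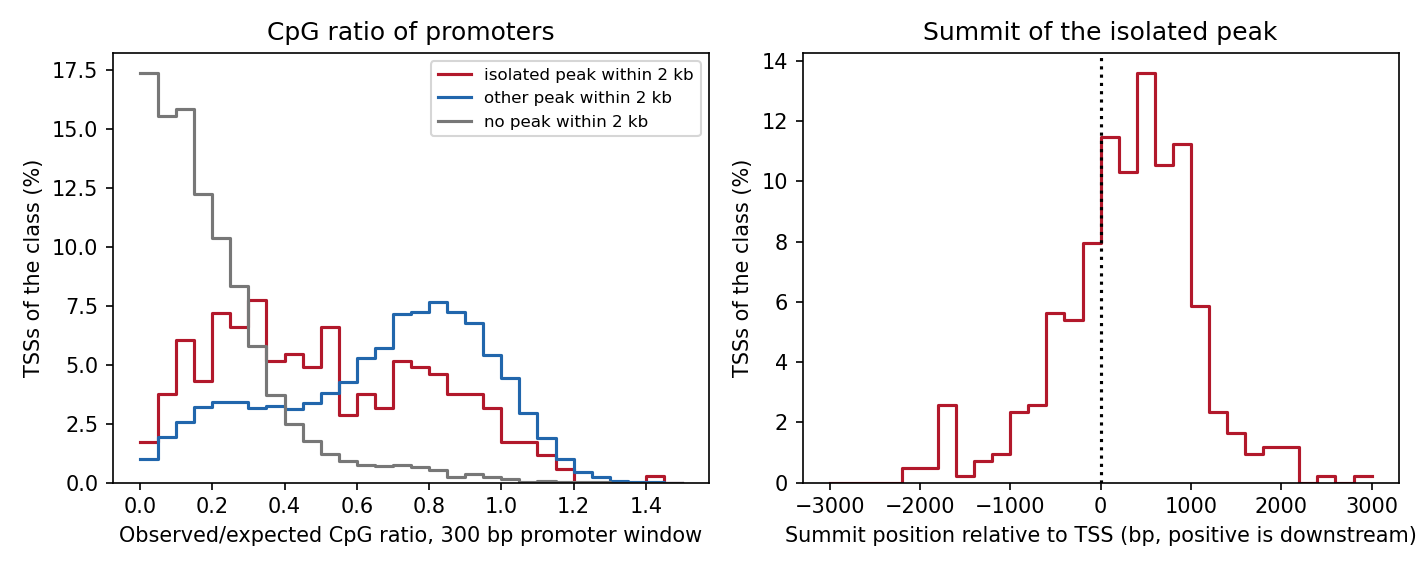
The left panel plots the percent of TSSs by observed to expected CpG ratio, for TSSs with an isolated peak within 2 kb (red), another peak (blue) or no peak (grey), with medians of 0.469, 0.717 and 0.154. The right panel plots the position of the summit of the isolated peak relative to the TSS, in bins of 200 bp and positive in the direction of transcription, with 70.5% of the summits downstream.

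Genes of synaptic adhesion and scaffolds had isolated promoter peaks at 5 of the 29 measured, or 17.2%, beside 1.94% of all genes. All 5 were overlapped by both replicates. Nlgn1, which encodes the postsynaptic adhesion protein neuroligin-1, had a peak of 1210 bp, 266 bp downstream of its TSS, with signal values of 4.23 in replicate 1 and 5.22 in replicate 2 and empty stretches of 107391 and 177244 bp. At Cntnap2 the peak, chr6:45059638-45060313, contained the TSS and had 6.24 in replicate 1 and 3.34 in replicate 2. The body of this gene of 2241333 bp held 38 replicated peaks. At Lsamp, an adhesion gene of the IgLON family, the peak of 594 bp contained the TSS and had 3.56 and 3.55 in the replicates. The other members were Dlg2, a postsynaptic scaffold gene, and Ncam2, with signal values of 2.78 and 2.55 in the replicated list, below the median of 3.48 of isolated peaks. Of the 29 genes, 24 had some promoter peak. Genes with an isolated promoter peak were longer than all genes (median 44620.5 against 17491 bp). The part of gene length in the 17.2% was not tested.

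Ionotropic and metabotropic glutamate receptor genes had an isolated peak at 3 of 27, Grm3, Gria1 and Grm5, or 11.1% beside 1.94% of all genes, and all 27 had some promoter peak. The peak of Grm3 was 2039 bp wide and had 5.45 in the replicated list. Potassium channel genes and their subunits, named with the stem Kcn, had 4 of 92, or 4.35%, with Kcnmb2 the strongest, and cadherin genes with the stem Cdh had 2 of 23, or 8.70%. These shares rest on 2 to 4 genes each. The peak of Cdh20 contained the TSS and had 8.69 in replicate 1 and 3.76 in replicate 2. The stems Scn, Gabr and Pcdh had 0 of 17, 0 of 16 and 0 of 35, too few genes for a count of 0 to set them apart.

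Genes of the pluripotent state and of basic cell functions had 1 isolated promoter among them. The pluripotency list had 0 of 20, although 19 of its genes had a promoter peak, and the lineage transcription factor list had 0 of 20 with promoter peaks at all 20. The counts were 0 of 20 for DNA repair genes and 0 of 20 for cell cycle genes. They were 0 of 80 for cytosolic and 0 of 78 for mitochondrial ribosomal protein genes. Genes with the stems Ndufa, Ndufb and Ndufs had 0 of 41. The ribosomal protein genes, and the proteasome genes below, were likewise picked by symbol stem. Beside 1.94% of all genes, none of these lists, from 20 to 80 genes, is long enough for a count of 0 to set it apart. Among 39 proteasome subunit genes Psmd6 had an isolated peak of 1376 bp, 607 bp downstream of its TSS, and signal values of 4.27 and 3.29 in the replicates.

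Over all 20324 genes, 394 had an isolated promoter peak among 15418 with any promoter peak. Among gene families, olfactory receptor genes had 11 isolated promoter peaks among 39 genes with any promoter peak and 1102 measured. The share of those measured was 0.998%, beside 1.94% of all genes. Olfr1349 had the strongest, with 6.90 in replicate 1 and 3.34 in replicate 2. Among 351 vomeronasal receptor genes 4 had a promoter peak and 1, Vmn2r56, an isolated one. Defensin genes had 3 isolated among 9 marked of 68, or 4.41% of those measured, led by Defb14. Serpin genes had 4 among 21 marked of 62, or 6.45%, led by Serpinb5, with 6.68 and 5.01 in the replicates. Most genes with the stems Zfp and Slc had a promoter peak, 344 and 317. Zinc finger genes with the stem Zfp had 12 isolated of 390, or 3.08%, led by Zfp101. Solute carrier genes had 9 of 376, or 2.39%, led by the sodium and calcium exchanger gene Slc8a3, and cytochrome P450 genes 2 of 99, or 2.02%, led by Cyp4x1, shares close to that over all genes. The stems Tmem, Ccdc and Ttll had 4 of 228, 0 of 133 and 0 of 13, and Tmem158 had its peak in replicate 1 only. Of 20 marker genes of terminally differentiated tissues, 0 had an isolated promoter peak and 11 had some promoter peak. Beside 1.94% of all genes, a count of 0 does not set this list, or the stems Ccdc and Ttll, apart.

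Genes that held several isolated peaks were long. At least 1 was found in 1527 genes, at least 3 in 177 and at least 5 in 34. The 177 genes had a median length of 567324 bp, and in 9 of them every replicated peak was isolated. Rbms3, an RNA-binding protein gene of 1057168 bp on chromosome 9, held 9 isolated peaks among 34. The next 4 genes, tied with 8 each, were Fhit, a nucleotide hydrolase gene of 1611970 bp with 30 replicated peaks in all, the receptor phosphatase gene Ptprd with 28, the axon guidance receptor gene Robo2 with 19, and the sorting receptor gene Sorcs1 with 14. Of the synaptic genes above, Dlg2 held 7 isolated peaks among 27.

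The sequence under isolated peaks was examined in the authors' mm9 series list, since a genome of that build was at hand. Its intervals were wider, and its isolated intervals are not the same set. The rule found 7574 isolated intervals, 5.93% of that list on chromosomes 1 to 19. Their median GC content was 45.1%, against 47.5% for the 120076 other intervals, and their median CpG ratio was 0.188 against 0.230. Isolated intervals over 100 kb from a TSS had a median of 8 CpG dinucleotides per kb, against 11.4 for other intervals as remote. Within 2 kb of a TSS the order was reversed, with 24.2 for isolated and 15.4 for other intervals. In the 20 kb on each side, a median of 90% of 20 sampled 32-mers occurred once in the genome, against 95% for 7505 other intervals. Under 50% of them were unique around 327 or 4.32% of the isolated and 1.36% of the other intervals. The part of such sequence in the isolation was not tested. By symbol, 219 genes had an isolated promoter peak in both lists, which is 64.8% of the 338 genes of the mm10 list that the mm9 annotation names and 34.5% of the 635 distinct gene symbols of the mm9 list. Kcnmb2, Irf4, Tacr1, Adra1a and Fhit were among those shared, and Dynlt1a, Usp40, Bco2 and Il18 were not. Cabcoco1 could not be compared, since the mm9 annotation does not hold its symbol.

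To show the sequence of remote isolated intervals, 3 were taken from the mm9 list. They had the highest signal values among the intervals considered, which did not come from every autosome. The intervals considered lay over 100 kb from a TSS, were overlapped by both replicates and had only unique sampled 32-mers within them. The central 200 bases are given on the plus strand of mm9, with CpG dinucleotides in capitals.
chr3:38611301-38611500: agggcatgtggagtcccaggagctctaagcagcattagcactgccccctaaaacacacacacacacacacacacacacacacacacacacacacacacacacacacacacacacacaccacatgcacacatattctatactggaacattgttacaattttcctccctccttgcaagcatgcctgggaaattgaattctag
chr15:30313301-30313500: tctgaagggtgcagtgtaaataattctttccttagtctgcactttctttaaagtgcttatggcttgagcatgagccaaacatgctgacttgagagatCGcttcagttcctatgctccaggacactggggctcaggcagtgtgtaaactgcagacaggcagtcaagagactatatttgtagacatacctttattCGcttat
chr8:70985201-70985400: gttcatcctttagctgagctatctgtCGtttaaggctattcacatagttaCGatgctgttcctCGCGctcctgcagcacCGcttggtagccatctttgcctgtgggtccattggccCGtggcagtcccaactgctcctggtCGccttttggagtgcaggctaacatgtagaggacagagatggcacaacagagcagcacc
The first interval, 800 bp wide, holds a run of CA repeats and no CpG in these bases, and lies 174062 bp from Fat4. The second, of 2400 bp, holds 2 CpG and lies 209853 bp from Ctnnd2, which encodes delta-catenin. The third, of 1000 bp, holds 7 and lies 184335 bp from Sh2d4a. Its CpG ratio over the whole interval, 0.413, was above the median of 0.169 of isolated intervals over 100 kb from a TSS and above that of isolated intervals within 2 kb of one, 0.384. Their signal values were 8.51 in replicate 1 and 8.06 in replicate 2 for the first, 6.02 and 7.19 for the second, and 4.81 and 6.62 for the third.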

How the data were processed

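H3K4me1 ChIP-seq of 2 biological replicates of E14TG2a.4 cells was analysed from the authors' peak lists. The deposited read-me texts describe narrowPeak files on mm10 (replicate 1, replicate 2, pooled and replicated) and broadPeak files on mm9. The list of replicate 2 and the pooled list also drew on 1 file that the list of replicate 1 did not, with its role not stated. The aligner and the caller were not given in the sources used here. The deposited signal value and −log10 q of each mm10 peak, and the signal value and q-value of each mm9 interval, are the authors' own and were used only to describe, rank or filter peaks within a list. Depth is unknown.

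A peak was isolated when more than 20000 bases lay between it and the next interval on each side. TSSs on mm10 came from the RefSeq promoter table of GRCm38.p6 for 16457 genes. For the others with a known strand the 5' end of the gene record was used, with the strand from GENCODE vM1 by symbol (3505) or synonym (362), and 341 genes were left out. Promoter means a TSS within 2 kb of the peak edge. CpG ratios came from the RefSeq promoter windows. Sequence under peaks was read from NCBIM37 (mm9) for the mm9 list, and unique 32-mers were counted on both strands over the whole genome, at 10 positions in each flank, for each isolated and every 16th other interval. No coordinate was converted between builds.

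Genes named in the text are the 10 with the strongest isolated promoter peak listed in both replicates, those at the 10 widest, 5 remotest and 5 most secluded peaks, up to 3 leading members of each symbol list and 1 of each stem, and the 3 genes holding most isolated peaks, with those tied. Dlg2, Ncam2, Gria1 and Grm5 were named besides, after their values were seen. The members and lists were chosen with earlier results of these data known. The functions were checked on simulated intervals with known answers. Alternatives are given in the closing section. The 5' ends of gene records were added after the data were seen. Figures were drawn with matplotlib 3.10.9, intervals computed with scipy 1.17.1, and tables handled with pandas 2.3.3 and numpy 2.4.6 under Python 3.11.15.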

Additional observations from a re-analysis of the deposited data

Results flagged for a closer look

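Chromosome X lies outside the rule. By the same distance, 208 of its 3454 replicated peaks were isolated, or 6.02%, with a median width of 371.5 bp, against 2.48% and 513 bp on the autosomes. It was picked out because these peaks belong to no comparison of the report, and no control library was used.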

How the results depend on the processing

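Of 48 alternative values for 6 quantities, 17 stayed within the limit set for the quantity and 31 moved beyond it. For the counts of peaks and genes the limit was a fixed ratio. For width, distance and promoter share it was the SD of the 2 replicate lists, and for support the exact interval. These limits differ in strictness, so 7574 peaks with the mm9 list counted as within it and a width of 525 bp as moved. With 10 kb as the distance there were 10994 isolated peaks and with 50 kb 2040, with median widths of 525 and 487 bp, median TSS distances of 69330 and 183472 bp, promoter shares of 6.05% and 7.60%, and 670 and 156 genes. With neighbours from the pooled list there were 3031 peaks and 186 genes, a width of 499 bp, a distance of 115074 bp and a share of 6.14%. With the mm9 list the width was 1200 bp, the distance 101414 bp, support by both replicates 58.4%, the promoter share 8.15% and the gene records 638, which carry the 635 symbols of the report. The 5' ends of gene records alone gave 111441 bp and 6.72%. Promoter limits of 1 and 5 kb gave 6.51% and 8.21%, and a 50% overlap lowered support to 52.6%. Leaving out a replicate, so that the rule was applied to the list of the other, gave 4867 to 4956 peaks, widths of 267 to 275 bp, distances of 109870 to 110844 bp, shares of 5.37 to 5.86% and 268 to 289 genes. A minimum −log10 q of 2 moved none of the 6 quantities. Across these settings the promoter share of isolated peaks was at most 8.21%, at the limit of 5 kb, where that of all intervals was 24.6%. In the mm9 list the 8.15% stood against 19.2% of the other intervals. No paired analysis was possible because the labels give a single group. Without read counts, a lack of neighbours cannot be told apart from neighbours below the threshold of the lists.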

Other observations

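Of the 10 isolated peaks with the highest signal value, 8 lay in gene bodies, beside 34.9% of all isolated peaks, among them Tbc1d22a (9.86 in the replicated list), Pbrm1 (8.81), a chromatin remodeller subunit gene, and the neurotrophin receptor gene Ntrk3 (8.23). That in Ntrk3, at chr7:78397236-78399345, had 584319 bp without replicated peaks on 1 side. The only intergenic one lay at chr8:27360759-27362099, 6612 bp from the acetylcholine receptor gene Chrnb3, with signal values of 11.1 in replicate 1 and 6.26 in replicate 2. In the pooled list 9 of the 10, all but that near Chrnb3, had a neighbour within 20 kb. These peaks were named after their values were seen.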
